A study of Mus musculus with 12 samples.

Results

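Cd5l and Fcrls are neighbouring genes on mouse chromosome 3 that were both lower in the stroke lesions of mice with induced Dkk1 than in those of wild-type mice. They are 2 of the 25124 genes of the count table, taken by their symbols. They had been chosen by their measured fall in lesions, so their values in the lesioned hemisphere are described here with errors and without a test, and only the comparison of genotypes in the intact hemisphere is tested for them. Stroke had been produced by blocking the middle cerebral artery (MCAo), brain tissue was collected 28 days later, and its RNA was sequenced in 12 libraries, 3 in each of 4 groups.

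The first group was the lesioned (ipsilateral) hemisphere of DKK1 mice and the second the lesioned hemisphere of wild-type (WT) mice. The third and the fourth were the intact (contralateral) hemisphere of DKK1 mice and of WT mice. DKK1 mice carried the alleles Gt(ROSA)26Sortm1.1(rtTA,EGFP)Nagy and Hprttm1(tetO-Dkk1)Spdl and the reporter Tg(TCF/Lef1-lacZ)34Efu/J, so that doxycycline turned on dickkopf-1, a secreted antagonist of Wnt signalling. WT mice were C57BL6/J without these alleles. All mice had MCAo and all were given doxycycline at 200 mg/kg, with induction 3 days after MCAo. No group carried the transgenes without doxycycline, and the labels do not give the strain background of the DKK1 mice, so effects of induced Dkk1, of the transgenes themselves and of background cannot be told apart. The rtTA allele sits at ROSA26, a locus active in most cell types. Whether each library is from its own animal is not in the labels, and p-values therefore measure the spread between these libraries, which may in part be technical.

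Cd5l encodes CD5 antigen-like, also called AIM, a secreted protein built of scavenger receptor cysteine-rich domains. In mice it is made by tissue macrophages such as those of liver, spleen and peritoneum, travels in blood bound to IgM, and is a target of the liver X receptors (LXR). Fcrls encodes Fc receptor-like S, which joins immunoglobulin-like domains to a scavenger receptor cysteine-rich domain, and in the mouse brain it is one of the genes that mark microglia, the resident macrophages of the parenchyma.

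In mm10 coordinates of the count table, Cd5l (transcript NM_009690, 2029 bases) lies on the plus strand at chr3:87357881-87371074. Fcrls (transcript NM_030707, 1981 bases) lies on the minus strand at chr3:87250965-87263524. The starts of both transcripts are 94357 bases apart and point away from each other, and no other gene of the table lies between them. Fcrl1, an Fc receptor-like gene of B cells, starts 5313 bases past the end of Cd5l. In the GENCODE vM21 annotation Cd5l has 1 transcript of 6 exons. Fcrls has 2, of 8 and 5 exons, and no other annotated gene overlaps Cd5l or Fcrls. The sequences around both starts are shown because both genes were lower in DKK1 lesions, the fall by which they were chosen. Each runs from 250 bases before to 50 bases after the start, 5′ to 3′ on the strand of the gene, from RefSeq (GRCm38.p6), at chr3:87357631-87357930 (plus strand) for Cd5l and at chr3:87263475-87263774 (minus strand) for Fcrls. Capitals mark GAGGAA, the core bound by PU.1-type factors of myeloid cells, on either strand.
Cd5l: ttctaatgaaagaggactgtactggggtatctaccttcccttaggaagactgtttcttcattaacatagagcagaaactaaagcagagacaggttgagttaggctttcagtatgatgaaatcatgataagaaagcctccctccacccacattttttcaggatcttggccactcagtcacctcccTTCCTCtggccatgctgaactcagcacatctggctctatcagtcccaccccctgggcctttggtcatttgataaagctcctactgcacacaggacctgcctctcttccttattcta
Fcrls: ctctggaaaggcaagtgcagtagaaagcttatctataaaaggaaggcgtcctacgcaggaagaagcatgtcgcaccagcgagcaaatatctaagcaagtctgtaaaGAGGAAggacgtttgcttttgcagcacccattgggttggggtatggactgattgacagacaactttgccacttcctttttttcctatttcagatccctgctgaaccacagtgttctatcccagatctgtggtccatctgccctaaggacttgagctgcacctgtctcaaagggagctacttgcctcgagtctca
Both windows held GAGGAA once, on the strand of the gene in Fcrls and on the opposite strand in Cd5l. It was found on either strand in 28.3% of the 32851 windows of this length in the table, so its presence in both is a description of these letters only. AGGTCA, the half-site of many nuclear receptors, was in neither window and in 16.3% of all windows. TGACTCA, the AP-1 element, was in neither and in 5.2% of all. TATAAA was in the Fcrls window, 217 bases before the RefSeq start, not in the Cd5l window, and in 13.6% of all. The 2 GENCODE transcripts of Fcrls start within its window, at chr3:87263599 and chr3:87263738, so positions hold for the RefSeq start only. The windows are 46.3% G and C in Cd5l and 48.0% in Fcrls, against a median of 52.7% over all windows. They are the reference sequence, and the alleles of the DKK1 mice were not analysed here.

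Totals were 21209920 to 26911840 counts per library. Dkk1 was at 0.289 to 1.64 CPM (counts scaled to the library total) in lesioned and 0.174 to 0.637 CPM in intact hemispheres of DKK1 mice, and at 0 counts in all 6 WT libraries. Snap25, a neuronal gene, was at 669 to 717 CPM in DKK1 and 570 to 753 CPM in WT lesions, so lesion libraries still held much neuronal RNA. On the first principal component, which held 73.8% of the variance, WT libraries numbered 1 stood apart from their groups. The WT lesion library 1 was at 70.9, among the DKK1 lesions (62.8 to 83.8), while the other 2 were at 29.2 and 37.1. The WT intact library 1 was at -41.2, against -72.6 and -63.3. The genotype differences of Cd5l and Fcrls, and the counts of listed genes called, are given with and without both. Of all genes, 17612 (70.1%) had enough counts to be tested.

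In lesions Cd5l was at 3.52, 3.63 and 3.47 CPM in the DKK1 libraries, against 169, 57.2 and 33.0 CPM in the WT libraries. The DKK1 values lay within a narrow band, the WT values spread over a wide range, and the groups did not overlap. The fitted log2 difference, DKK1 over WT, was -4.61 ± 0.80 (SE, n = 3 each), 24.4-fold lower. Without both WT libraries numbered 1 it was -3.67 ± 0.23. The count behind these values was 90, 88 and 93 in DKK1 lesions, against 4518, 1444 and 867 in WT lesions.

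Fcrls in lesions was at 27.8, 16.1 and 29.0 CPM in the DKK1 libraries, against 132, 55.0 and 77.3 CPM in the WT libraries. The highest DKK1 lesion stood below the lowest WT lesion. The fitted log2 difference was -1.86 ± 0.40 (SE, n = 3 each), 3.62-fold lower, and -1.44 ± 0.28 without both WT libraries numbered 1. In a whole-tissue library, fewer cells of a type and less RNA per cell cannot be told apart.

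**Figure D1:**
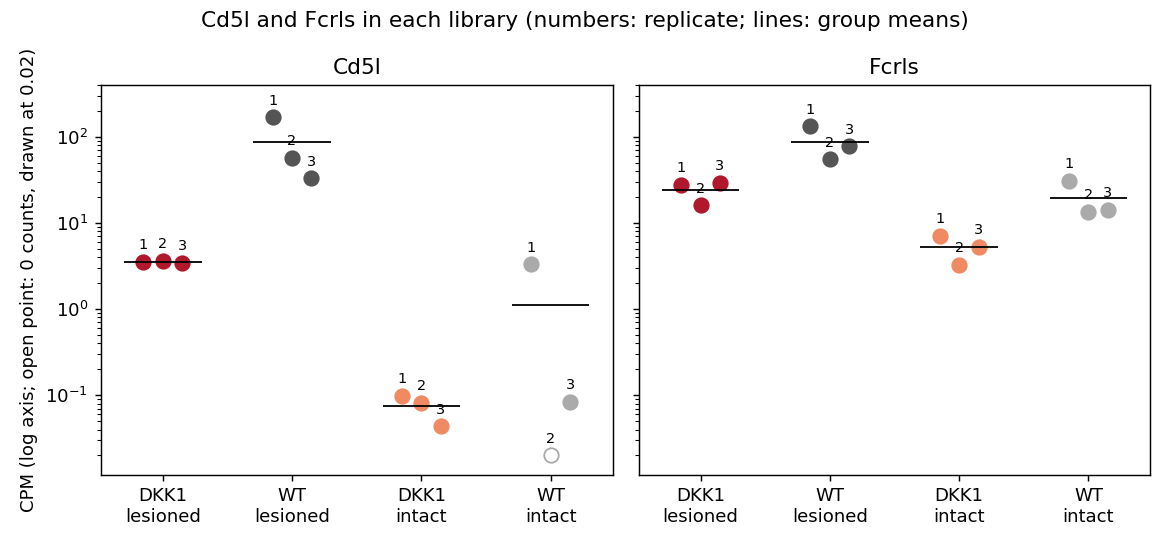
CPM of Cd5l (left) and Fcrls (right) in each library on a log axis, by genotype and hemisphere, with points numbered by replicate, lines at group means and an open point for 0 counts. DKK1 lesions sit together at 3.47 to 3.63 CPM of Cd5l, below the 33.0 to 169 CPM of WT lesions, and Fcrls is below WT in both hemispheres.

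The intact hemisphere gives the comparison that was not used to choose the genes. Fcrls was at 7.15, 3.24 and 5.28 CPM in DKK1 libraries, against 30.8, 13.4 and 14.1 CPM in WT libraries. All 3 DKK1 values were below all 3 WT values, and the share of all genes that separate in this way is not given. The log2 difference was -1.91 ± 0.46 (SE, n = 3 each), 3.77-fold lower, with an unadjusted p = 0.00153 and an adjusted p = 0.12 by edgeR's quasi-likelihood test, so Fcrls did not pass the threshold there. DESeq2 called it (log2 -1.90 ± 0.49, adjusted p = 0.00969). Without both WT libraries numbered 1 the edgeR value was -1.41 ± 0.35 with an adjusted p = 0.146. The genotype difference of Fcrls in lesions minus that in the intact hemisphere was 0.06 ± 0.60 (SE, log2), given without a test because the lesions chose the gene.

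Cd5l was close to the limit of detection in intact tissue. It had 2, 2 and 1 counts in DKK1 libraries (0.098, 0.082 and 0.0436 CPM). WT libraries had 88, 0 and 2 counts (3.30, 0 and 0.0844 CPM), and the 0 allows up to 0.128 CPM at that depth, from 3 counts and counting error only. WT library 1 alone stood above the DKK1 values. Cd5l reached the fit through its counts in lesions, and among the 6 intact libraries alone it did not pass the filter on low counts. The log2 difference was -3.92 ± 2.08 (SE, n = 3 each, edgeR adjusted p = 0.942), and without that library it was 0.73 (edgeR adjusted p = 0.985). It was -1.17 with limma-voom and -0.54 on deposited TPM with a pseudocount of 1. A genotype difference of Cd5l in intact tissue was not detectable at this depth.

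Both genes were higher in lesioned than in intact tissue in both genotypes. Cd5l differed by log2 5.49 ± 1.70 (SE) in DKK1 mice and 6.17 ± 0.91 in WT mice, and the WT value was 9.89 ± 0.47 without both libraries numbered 1, since 1 of these supplied 88 of the 90 counts of WT intact tissue. Fcrls differed by log2 2.23 ± 0.46 in DKK1 mice and 2.18 ± 0.41 in WT mice. Lesion libraries did not overlap intact libraries for either gene in either genotype. The share of all genes that separate in this way is not given, here or for the genotypes. Calls between hemispheres were frequent, with 27.5% of tested genes higher in lesions of DKK1 and 21.2% in lesions of WT mice. Both comparisons share the lesion libraries that chose the genes, and no test is given. By mean, Cd5l was ordered WT lesions (86.4 ± 72.5 CPM, SD, n = 3), DKK1 lesions (3.54 ± 0.0833), WT intact (1.13 ± 1.88) and DKK1 intact (0.0745 ± 0.028). The last pair of that order overlapped, and WT intact library 1 came close to the DKK1 lesions. Fcrls was ordered WT lesions (88.2 ± 39.9 CPM), DKK1 lesions (24.3 ± 7.12), WT intact (19.4 ± 9.82) and DKK1 intact (5.22 ± 1.96). DKK1 lesions (16.1 to 29.0 CPM) and WT intact tissue (13.4 to 30.8 CPM) overlapped in Fcrls.

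The balance between both genes also shifted. TPM, the authors' length-corrected values, allow levels of different genes to be compared. The TPM of Cd5l over that of Fcrls was 0.124, 0.22 and 0.117 in DKK1 lesions, against 1.25, 1.02 and 0.417 in WT lesions. In WT lesions 1 and 2 both genes thus stood at about the same level per length, while in each DKK1 lesion Fcrls was the higher. In intact tissue the ratio was 0.00798 to 0.0248 in DKK1 and 0 to 0.105 in WT libraries.

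No gene of the microglial and macrophage lists was called lower in DKK1 lesions, a count near the small share of all genes called lower there. In the DKK1 over WT lesion comparison 268 genes (1.52% of those tested) were called higher and 149 (0.846%) lower, and higher genes made up 64.3% of calls, or 50% with upper-quartile scaling. These 417 calls became 2551 without WT lesion 1, 1070 without DKK1 lesion 1, and 119 to 143 without any 1 of the other 4 lesion libraries. Over all genes tested, 20.9% had an unadjusted p under 0.05 in this comparison and 54.5% a fold above 0, the shares beside which the counts of each list stand. Of 19 homeostatic microglial genes, which resting microglia express, none was called by edgeR, 6 had an unadjusted p under 0.05, and 16 had a fold above 0. DESeq2 and limma-voom each called 1, higher. The median log2 difference of this list was 0.29, against 0.02 over all genes tested. Tmem119, a membrane protein used to identify microglia, was at 54.3, 56.1 and 59.5 CPM in DKK1 lesions, against 47.5, 33.1 and 35.6 CPM in WT lesions (log2 0.55 ± 0.14, edgeR adjusted p = 0.0654). Slco2b1, a transporter, differed by 0.42 ± 0.13 and was not called (edgeR adjusted p = 0.11). The lowest log2 difference of any gene of this list was -0.11, against -1.86 for Fcrls.

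The general myeloid list holds genes shared by microglia, macrophages and monocytes. None of its 15 genes was called by edgeR in lesions, 9 had an unadjusted p under 0.05, and DESeq2 and limma-voom each called 2, higher. All 15 had a fold above 0, with a median of 0.51 and a range of 0.11 to 0.83. C1qb, a chain of complement C1q, averaged 300 ± 37.0 CPM in DKK1 lesions and 209 ± 40.6 CPM in WT lesions (SD, n = 3 each, log2 0.52 ± 0.14 with its SE, edgeR adjusted p = 0.0724). Cd14, a co-receptor for lipopolysaccharide, averaged 37.0 ± 2.8 CPM in DKK1 lesions and 20.8 ± 6.69 CPM in WT lesions (SD, n = 3 each, edgeR adjusted p = 0.106).

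Genes of activated microglia and of macrophages at the borders of the brain were, where called, higher in DKK1 lesions. Of 21 genes of disease-associated microglia 3 were called higher and none lower, with a median of 0.50. Apoe, which carries lipid, averaged 2073 ± 158 CPM in DKK1 lesions and 1434 ± 213 CPM in WT lesions (log2 0.53 ± 0.11, edgeR adjusted p = 0.0366). The lysosomal proteases Ctsd (0.62 ± 0.12, edgeR adjusted p = 0.0304) and Ctsb (0.50 ± 0.11, edgeR adjusted p = 0.0383) also rose. Of 14 genes of border macrophages 2 were called higher and none lower, with a median of 0.68. Colec12, a scavenger receptor with a collagen-like stalk, was at 101, 134 and 118 CPM in DKK1 lesions, against 57.6, 40.3 and 38.5 CPM in WT lesions (log2 1.37 ± 0.23, edgeR adjusted p = 0.0116). Cd209f, a lectin gene of low level here, averaged 1.13 ± 0.0993 CPM in DKK1 and 0.472 ± 0.0776 CPM in WT lesions (edgeR adjusted p = 0.0452). Of 12 monocyte genes none was called by edgeR, 4 had an unadjusted p under 0.05, and DESeq2 called 2 and limma-voom 1, higher. S100a4, a calcium-binding protein, was at 11.4, 13.4 and 12.1 CPM in DKK1 lesions, against 9.05, 3.96 and 5.75 CPM in WT lesions (log2 0.97 ± 0.25, edgeR adjusted p = 0.0621). The calls of Apoe, Ctsd and Ctsb were lost without DKK1 lesion 2 or 3 or WT lesion 2 or 3 (adjusted p of 0.083 to 0.175). That of Colec12 was lost without DKK1 lesion 2 or WT lesion 2 or 3 (adjusted p of 0.0553 to 0.0751), and that of Cd209f without any 1 lesion library other than WT lesion 1 (adjusted p of 0.0541 to 0.21).

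The macrophages of liver, spleen and peritoneum are the known sources of Cd5l outside the brain, so their genes were examined as a list of 14. Clec4f, the lectin that defines Kupffer cells of the liver, had 1 count over the DKK1 lesions and 0 over the WT lesions. In intact tissue it had 1 count over DKK1 and 12 over WT libraries, at 0.375 CPM in WT intact 1, against 0.0428 and 0.0422 CPM in the other WT intact libraries. WT intact 1 is also the library that holds 88 of the 90 Cd5l counts of its group, and the part of such cells in them was not tested. Over DKK1 lesions Marco had 11, Timd4 12, Vsig4 42 and Gata6 33 counts, against 3, 11, 13 and 22 counts of the same genes over WT lesions. These 5, named after their counts were seen, were too low to be tested. Of the other 9, Id3, an inhibitor of DNA binding by helix-loop-helix factors, was called higher (69.0 ± 4.76 CPM in DKK1 and 50.1 ± 8.25 CPM in WT lesions, log2 0.46 ± 0.10, edgeR adjusted p = 0.0394), and none was called lower. The Id3 call was lost without DKK1 lesion 2 or 3 or WT lesion 2 or 3 (adjusted p of 0.0971 to 0.182). Brain cells express several of these 9 as well. Nr1h3, which encodes the receptor LXRα, averaged 18.6 ± 3.97 CPM in DKK1 lesions and 12.1 ± 4.19 CPM in WT lesions and was not called (log2 0.62 ± 0.22, edgeR adjusted p = 0.141).

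Of 13 LXR targets other than Cd5l, Nr1h3 among them, 2 were called higher and none lower, with a median of 0.34 and a lowest log2 difference of -0.13. Abcg1, a cholesterol exporter, averaged 264 ± 20 CPM in DKK1 lesions and 208 ± 18.7 CPM in WT lesions (log2 0.34 ± 0.08, edgeR adjusted p = 0.0387), a call lost without DKK1 lesion 2 or 3 or WT lesion 2 or 3 (adjusted p of 0.149 to 0.176). Apoe was the other. Mylip, the ligase that degrades the LDL receptor, differed by 0.55 ± 0.16 and was not called (edgeR adjusted p = 0.0887). Cd5l thus stood at -4.61 beside LXR targets that lay between -0.13 and 0.62.

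The nearest relatives by family gave no lower call in lesions either. Of 12 Fc receptor-like and Fc receptor genes 11 were tested, none was called by edgeR and 5 had an unadjusted p under 0.05. DESeq2 called 3 and limma-voom 1, higher. All 11 had a fold above 0 (median 0.56). Fcrla, an intracellular family member of B cells, differed by 1.11 ± 0.29 (edgeR adjusted p = 0.0731) and Fcgrt, the neonatal Fc receptor, by 0.65 ± 0.21 (edgeR adjusted p = 0.117). Of 18 scavenger receptors 15 were tested, none was called by edgeR, 7 had an unadjusted p under 0.05, and DESeq2 called 2, higher, and limma-voom 0. Cd163l1, which shares the cysteine-rich domain with Cd5l and Fcrls, was at 2.58, 1.36 and 4.03 CPM in DKK1 lesions, against 0.636, 0.119 and 1.03 CPM in WT lesions (log2 2.15 ± 0.58, edgeR adjusted p = 0.0778). Cd6, a T cell receptor with that domain, differed by 0.63 ± 0.19 (edgeR adjusted p = 0.102). For IgM, the carrier of CD5L in blood, only Fcmr, its receptor, and Jchain, which joins its units, were tested of 6 genes. Pigr, the receptor that carries IgM across epithelia, named after its values were seen, was too low to be tested, and it too was highest in WT intact 1 (5.18 CPM, against 0.641 and 0.38 CPM in the other WT intact libraries). Neither Fcmr nor Jchain was called by edgeR (log2 1.12 ± 0.35 and -0.07 ± 0.44), 1 had an unadjusted p under 0.05, and DESeq2 called 1, higher, and limma-voom 0.

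Some markers of B cells rose in DKK1 lesions, where Cd5l and Fcrls were lower. Of 6 B cell genes 2 were called higher, the surface protein Ms4a1 (11.8 ± 3.13 CPM in DKK1 and 4.07 ± 0.528 CPM in WT lesions, edgeR adjusted p = 0.0167) and the transcription factor Pax5 (16.7 ± 6.1 CPM in DKK1 and 5.90 ± 1.13 CPM in WT lesions, edgeR adjusted p = 0.0354). The call of Ms4a1 was lost without DKK1 lesion 3 or WT lesion 2 or 3 (adjusted p of 0.0584 to 0.103), and that of Pax5 without any of these or DKK1 lesion 2 (adjusted p of 0.0702 to 0.163). The summed TPM of the 6 was 70.7 to 122 in DKK1 lesions and 33.2 to 45.1 in WT lesions. Of 7 T cell genes none was called by edgeR, 3 had an unadjusted p under 0.05, and DESeq2 and limma-voom each called 3, higher. Their sum was 31.4 to 36.7 TPM in DKK1 and 17.2 to 28.2 TPM in WT lesions. In intact tissue it was already 19.1 to 21.5 TPM in DKK1 and 17.6 to 24.7 TPM in WT libraries. In both genotypes 1 of the 7 was called lower in lesioned than in intact tissue (log2 -1.03 in DKK1 and -1.47 in WT mice). The share of that gene in the sum is not given, so the sum is not taken as a level of T cells. Of 8 neutrophil genes only S100a8 and S100a9 were tested, and 0 were called by edgeR, DESeq2 or limma-voom, with 0 at an unadjusted p under 0.05. Ly6g, which defines neutrophils, had 3 counts over DKK1 lesions and 0 over WT lesions. The part of these cells in the levels of Cd5l and Fcrls was not tested.

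Counts of calls in lesions turned on single libraries. Over the 140 tested genes of all lists, 9 were called higher and 0 lower by edgeR, with 60 at an unadjusted p under 0.05, against 20.9% of all genes. DESeq2 called 28 and limma-voom 21, all higher, among 1171 genes called by DESeq2 and 694 by limma-voom in either direction. Without the WT lesion library 1 the count was 66, and without both WT libraries numbered 1 it was 93, again with none lower. It was 17 without DKK1 lesion 1, 1 without DKK1 lesion 2 or 3, and 0 without WT lesion 2 or 3. Without both WT libraries numbered 1, edgeR called 12 of 19 homeostatic, 14 of 15 general myeloid and 18 of 21 disease-associated genes higher. In that fit 10 of 14 border macrophage and 8 of 12 monocyte genes were also called higher. Over the 17591 genes tested both in it and with all libraries, Cd5l and Fcrls left out, 2257 were called higher and 980 lower.

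**Figure D2:**
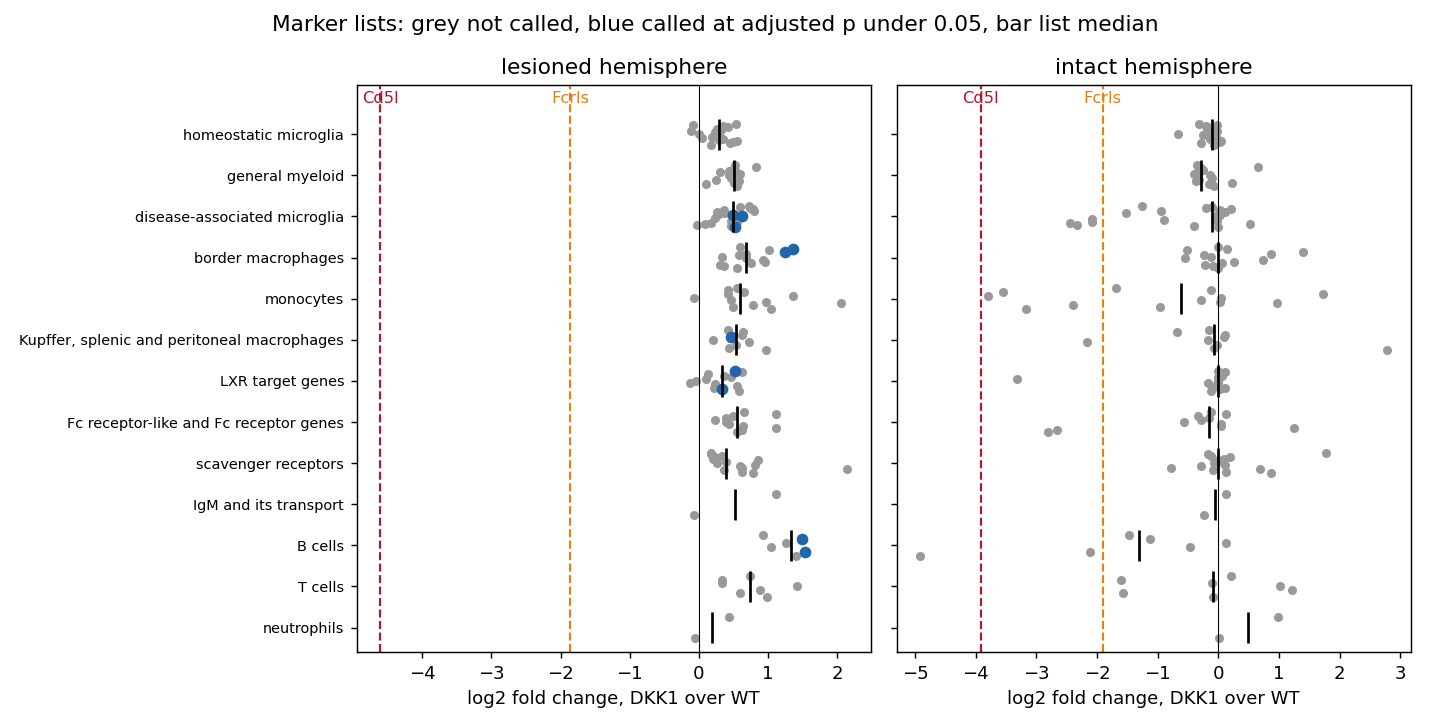
The log2 difference, DKK1 over WT, of each tested gene by list in the lesioned (left) and intact (right) hemisphere, with grey points for genes not called, blue points for genes called at an adjusted p under 0.05, bars at list medians and dashed lines at the values of Cd5l and Fcrls. In lesions the 140 listed genes lie between -0.13 and 2.15, to the right of Fcrls at -1.86 and Cd5l at -4.61.

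Because each library holds a different amount of myeloid RNA, Cd5l and Fcrls were also set against the summed TPM of marker genes of the same library. Homeostatic genes summed to 868, 871 and 945 TPM in DKK1 lesions, against 942, 644 and 706 TPM in WT lesions. Per 100 TPM of these genes, Fcrls was at 2.33, 1.34 and 2.26 in DKK1 lesions, against 10.6, 6.36 and 8.22 in WT lesions. In intact tissue it was at 1.31, 0.722 and 1.11 in DKK1 libraries, against 4.93, 2.78 and 2.95 in WT libraries. The groups did not overlap in either hemisphere. The intact difference had an exact two-sided permutation p = 0.1, the smallest that 3 against 3 libraries can give. Between hemispheres this Fcrls ratio was higher in lesioned tissue, without overlap in either genotype. It averaged 8.41 in lesioned and 3.55 in intact tissue of WT mice, and 1.98 and 1.05 in those of DKK1 mice. The list includes Mef2c, the 1 gene of it called lower in lesioned than in intact tissue. Mef2c averaged 365 CPM in lesioned and 495 CPM in intact tissue of WT mice, and 346 and 487 CPM in those of DKK1 mice. Its part in the ratio between hemispheres was not tested.

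Relative to the general myeloid genes, Fcrls stood at about the same share in both hemispheres of WT mice. Those genes summed to 1934, 2243 and 2443 TPM in DKK1 lesions, against 2075, 1291 and 1557 TPM in WT lesions, and to 268 to 279 TPM in DKK1 and 274 to 422 TPM in WT intact tissue. Fcrls per 100 TPM of them averaged 0.813 ± 0.268 in lesioned and 1.37 ± 0.48 in intact tissue of DKK1 mice (SD, n = 3 each). In WT mice it averaged 3.91 ± 0.845 in lesioned and 4.13 ± 1.07 in intact tissue. Lesioned and intact libraries overlapped within each genotype, while DKK1 and WT libraries did not overlap in either hemisphere. In intact tissue that genotype difference also had an exact two-sided permutation p = 0.1. Against border macrophage genes, Fcrls averaged 9.86 ± 3.85 in DKK1 and 57.8 ± 8.03 in WT lesions, and 15.3 ± 5.55 in DKK1 and 57.6 ± 13.9 in WT intact tissue.

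Cd5l was higher in lesioned than in intact tissue by more than the general myeloid genes were. Per 100 TPM of general myeloid genes it was at 0.129, 0.114 and 0.102 in DKK1 lesions, against 6.02, 3.22 and 1.55 in WT lesions. In intact tissue it was at 0.0243, 0.0215 and 0.0112 in DKK1 libraries, against 0.563, 0 and 0.0207 in WT libraries. Lesioned libraries stood above intact ones in both genotypes. WT lesion 1, with the most Cd5l, also had the most general myeloid TPM of its group. The part of myeloid content in the levels of Cd5l was not tested.

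**Figure D3:**
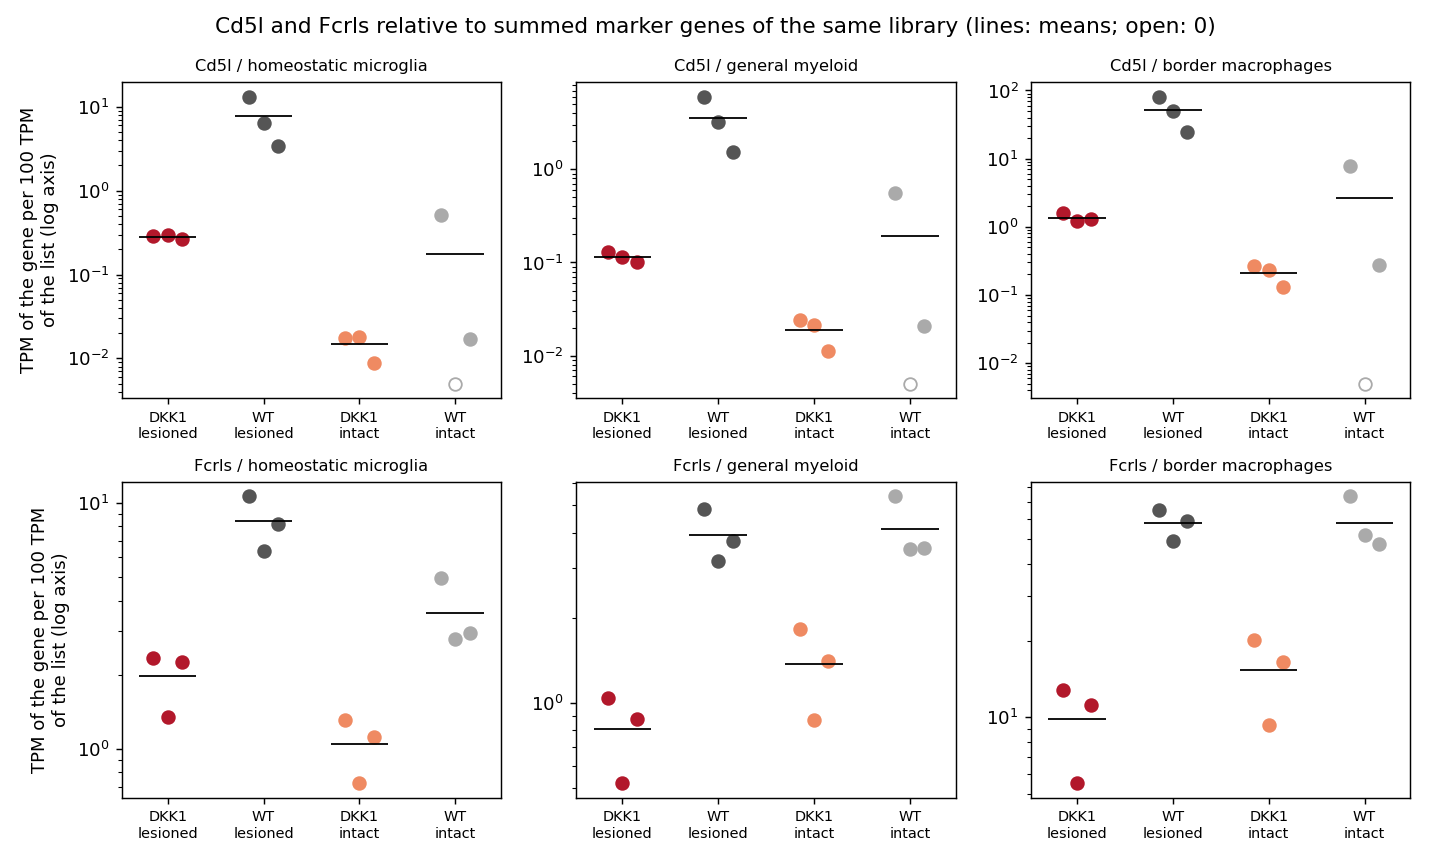
TPM of Cd5l (upper row) and Fcrls (lower row) per 100 TPM of the summed homeostatic microglial, general myeloid and border macrophage genes of the same library, on log axes, with lines at group means and open points for 0. DKK1 libraries lie below WT libraries in every Fcrls panel. Mean Fcrls in WT mice is at 3.91 in lesioned and 4.13 in intact tissue per general myeloid TPM, and at 8.41 and 3.55 per homeostatic TPM.

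In the intact hemisphere, 65 genes (0.369%) were called higher and 90 (0.511%) lower in DKK1 than in WT mice, and these 155 calls became 94, 99 and 100 without DKK1 intact 1, 2 and 3 in turn. Of the 140 listed genes edgeR called 0, with 10 at an unadjusted p under 0.05, a count near the 6.08% of all genes at that p. DESeq2 called 3, all lower, and limma-voom 0, and edgeR called 2 without WT intact 3. The 3 of DESeq2, named after their values were seen, were Hp (log2 -3.56 ± 0.73), which binds haemoglobin, Apoc1 (-3.34 ± 0.66), an apolipoprotein and LXR target, and Fcrl1 (-2.88 ± 0.67). The list medians were -0.10 for homeostatic microglial, -0.28 for general myeloid and -0.62 for monocyte genes, against 0.00 over all genes, and without both WT libraries numbered 1 they were 0.02, 0.03 and 0.00. Fcrls was at -1.91 and at -1.41 in the same fits.

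Between hemispheres, calls were frequent across the genome. In DKK1 mice 27.5% of tested genes were called higher and 22.6% lower in lesioned than in intact tissue, and in WT mice 21.2% higher and 15.9% lower. Of the 140 listed genes 127 were called higher and 2 lower in DKK1 mice, and 123 higher and 2 lower in WT mice. The general myeloid genes had a median log2 difference of 3.04 in DKK1 and 2.46 in WT mice, the homeostatic genes of 1.85 in DKK1 and 1.23 in WT mice, and the disease-associated genes of 3.17 in DKK1 and 2.58 in WT mice. Fcrls, at 2.23 in DKK1 and 2.18 in WT mice, stood between the homeostatic and the general myeloid medians in both. Cd5l, at 5.49 in DKK1 and 6.17 in WT mice, stood above every general myeloid gene (highest 4.45 in DKK1 and 3.44 in WT). In DKK1 mice the highest disease-associated gene, at 7.18, and the highest monocyte gene, at 8.66, stood above Cd5l. In WT mice the highest of these lists were at 4.68 and 4.54, below Cd5l.

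Genes near Cd5l and Fcrls were examined within 1 Mb on either side. The count table holds 43 such genes, and 37 of them were tested. In lesions 3 were called higher and 2 lower in DKK1 than in WT mice, and in intact tissue 0 were called higher and 2 lower. Over all genes the shares were 1.52% higher and 0.846% lower in lesions, and 0.369% higher and 0.511% lower in intact tissue. The nearest tested neighbour on the Fcrls side, Kirrel, which encodes an adhesion protein, was at 43.5, 56.2 and 50.8 CPM in DKK1 lesions, against 43.8, 34.1 and 34.3 CPM in WT lesions, and was not called (log2 0.42 ± 0.12, edgeR adjusted p = 0.0913). The nearest on the Cd5l side, Fcrl1, was at 5.29, 7.10 and 10.5 CPM in DKK1 lesions, against 6.28, 3.29 and 5.97 CPM in WT lesions (log2 0.56 ± 0.30, edgeR adjusted p = 0.314). In intact tissue Fcrl1 was at 0.098, 0.164 and 0.0436 CPM in DKK1 libraries, against 0.938, 0.513 and 0.802 CPM in WT libraries. Those groups did not overlap and the log2 difference was -2.81 ± 0.59, which missed the threshold in edgeR (adjusted p = 0.0562) and passed it in DESeq2 (adjusted p = 0.00202).

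Cd1d2, which encodes a CD1 lipid-presenting protein, had 51 counts over the DKK1 lesions and 1 over the WT lesions, a ratio of 52.1 with an exact 95% interval of 8.94 to 2098 that covers counting error only (edgeR adjusted p = 0.00277). The call held without each of the 6 lesion libraries in turn. Cd1d2 passed the filter on low counts only through the DKK1 lesions, where it was high, with 5 counts over DKK1 and 1 over WT intact libraries. Its p is therefore not independent of that filter. Cd1d2 has a near-identical copy beside it, Cd1d1 (3.58 CPM in DKK1 and 2.96 CPM in WT lesions on average), and how reads were divided between them is not given, so the value of Cd1d2 is uncertain. Iqgap3, a scaffold protein of dividing cells, was at 2.31, 2.15 and 2.20 CPM in DKK1 lesions, against 5.61, 4.24 and 4.53 CPM in WT lesions (log2 -1.11 ± 0.20, edgeR adjusted p = 0.0161). In intact tissue it did not pass the threshold, at 0.588, 0.615 and 0.349 CPM in DKK1 and 1.09, 0.898 and 0.887 CPM in WT libraries (log2 -0.89 ± 0.25, edgeR adjusted p = 0.261). The lesion call of Iqgap3 was lost without DKK1 lesion 2 or 3 or WT lesion 3 (adjusted p of 0.0613 to 0.0856).

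The other calls near Cd5l and Fcrls were smaller changes than those of Cd1d2 and Iqgap3. Pear1, a platelet and endothelial receptor, differed by log2 0.86 ± 0.19 in lesions (edgeR adjusted p = 0.0421) and Glmp, a lysosomal membrane protein, by 0.41 ± 0.10 (edgeR adjusted p = 0.0476). Hdgf, a growth factor that binds heparin, differed by log2 -0.19 ± 0.04 in lesions and -0.21 ± 0.04 in intact tissue (edgeR adjusted p = 0.0468 and 0.049). Arhgef11, a guanine nucleotide exchange factor, differed by log2 -0.27 ± 0.05 in intact tissue (edgeR adjusted p = 0.025) and by -0.20 ± 0.05 in lesions, where it was not called (edgeR adjusted p = 0.0552). In lesions Pear1, Glmp and Hdgf lost their calls without DKK1 lesion 2 or 3 or WT lesion 2 or 3 (adjusted p of 0.118 to 0.22). In intact tissue Arhgef11 and Hdgf lost theirs without any 1 of the 6 libraries (adjusted p of 0.0654 to 0.314).

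**Figure D4:**
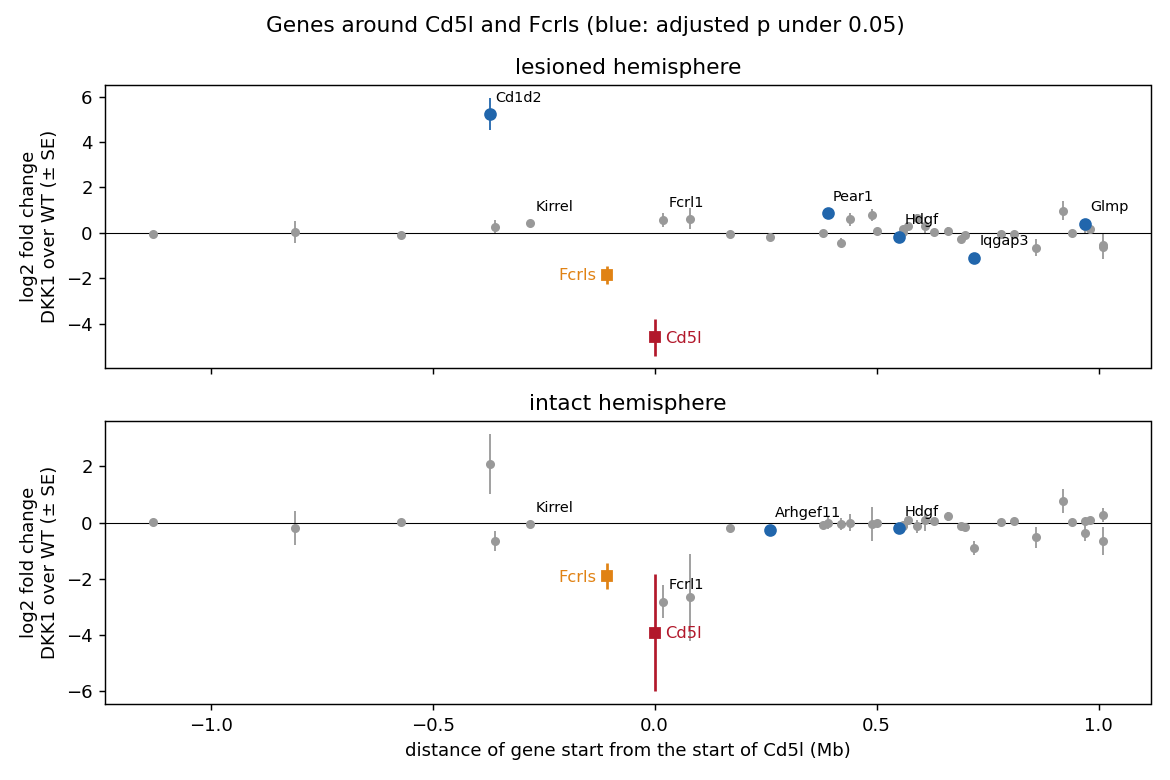
The log2 difference, DKK1 over WT, with its SE for tested genes around Cd5l and Fcrls in the lesioned (upper) and intact (lower) hemisphere, by distance of each gene's start from the start of Cd5l in Mb, with called genes in blue. Fcrls and Cd5l stand at -1.86 and -4.61 in lesions, between Kirrel at 0.42 and Fcrl1 at 0.56.

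Genes whose profile over the 12 libraries was most like that of Cd5l or Fcrls were found by the root mean square difference of log2 CPM, centred and scaled to an SD of 1, among the 15887 other tested genes of at least 1 CPM on average. On this scale 0 is an identical shape. For Cd5l they were Cd300ld (0.252), a receptor of myeloid cells, Dpyd (0.31), the enzyme that degrades pyrimidines, Iqgap3 (0.346), Nkx2-2 (0.356), a transcription factor of the oligodendrocyte lineage, and Slc39a4 (0.361), a zinc importer. Fcrls ranked 25th, at 0.427. Cd300ld was at 0.783, 1.11 and 1.12 CPM in DKK1 lesions, against 8.34, 2.38 and 3.16 CPM in WT lesions, with 0 to 0.164 CPM in DKK1 and 0 to 0.338 CPM in WT intact tissue. Its lesion groups did not overlap. Its log2 difference was -2.20 ± 0.58, and its shape shares the high WT lesion 1 of Cd5l.

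For Fcrls they were Prdm16 (0.248), a transcription factor, Lbhd2 (0.338), Sox10 (0.365), a transcription factor of oligodendrocytes, Actl6a (0.384), a subunit of chromatin remodelling complexes, and D730005E14Rik (0.389). Cd5l ranked 13th. Likeness of shape is not likeness of size: Prdm16 averaged 27.1 CPM in DKK1 and 37.1 CPM in WT lesions and 20 CPM in DKK1 and 27.4 CPM in WT intact tissue, a log2 difference of -0.45 ± 0.13 in lesions and -0.46 ± 0.13 in intact tissue. D730005E14Rik was closer in size to Fcrls, at 0.901, 0.866 and 0.857 CPM in DKK1 lesions, against 4.22, 2.93 and 3.96 CPM in WT lesions. None of the homeostatic or general myeloid genes was among the 5 most like Cd5l or Fcrls. The scale and the libraries are those that hold the choice of Cd5l and Fcrls, and no test is given. Ranks are given on all 12 libraries only.

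**Figure D5:**
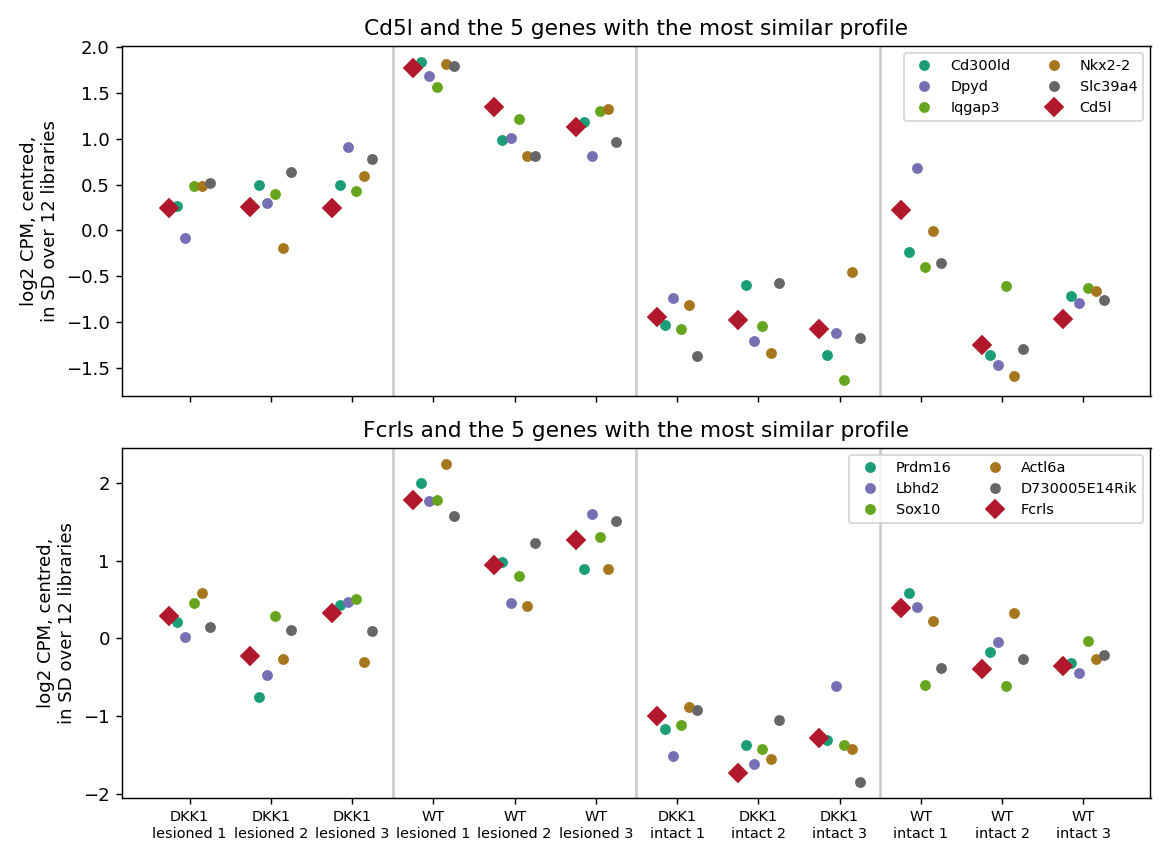
Log2 CPM, centred and in units of the SD over 12 libraries, for Cd5l (upper) and Fcrls (lower), drawn as diamonds, and the 5 genes most like each, drawn as circles, by library. WT lesion 1 is the highest library for Cd5l and Fcrls, and DKK1 lesions lie below WT lesions for both.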

How the data were processed

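RNA came from Qiazol lysates cleaned on miRNeasy micro columns, and libraries were made with a directional NEBNext Ultra II kit, per the labels' protocols. STAR 2.7.0f, HOMER 4.11, DESeq2 and mm10 were used, per the submitters' processing notes, without their roles, settings or use of strand. As the authors deposited them, raw counts are for 1 transcript per gene, and a TPM table for the same libraries has columns that sum to 464026 to 480699. Cd5l and Fcrls have the same transcript in both tables, as do 19749 genes (78.6%). The count header of WT lesion 1 lacks the suffix flip that the other libraries' headers carry, but in each library, WT lesion 1 included, TPM times length over count was the same for nearly all genes (spread of at most 0.214%).

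Counts of all 12 libraries were fitted in one model of 4 groups with edgeR 4.0.16 (R 4.3.3): its expression filter (minimum count 10), TMM scaling (factors 0.963 to 1.04), robust quasi-likelihood tests and Benjamini-Hochberg adjustment over 17612 genes at 0.05. Adjusted p-values are edgeR's unless another tool is named. Each SE is the log2 fold change over the square root of its F statistic. CPM use TMM-scaled totals. Alternatives used DESeq2 1.42.0, limma 3.58.1 and the deposited TPM, with a pseudocount of 0.1 or 1. After the fits, the method was also tested on simulated counts with changes in known genes, drawn with the means and spread of these data.

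Cd5l, Fcrls and all gene lists were chosen with earlier results of these data known. Named genes are, in each list, those called in a comparison of genotypes and otherwise up to 3 with the smallest p in lesions, of which examples are printed; called genes within 1 Mb and the nearest tested neighbours; and the 5 genes most like each of the pair.

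By deviations from group means, equal replicate numbers paired the hemispheres of WT mice. Their correlations were 0.297 to 0.487, against at most 0.152 for unequal numbers. In DKK1 mice equal numbers gave 0.276, 0.125 and 0.105, while intact 2 with lesion 3 gave 0.172. Numbers 2 and 3 were thus not clearly paired there. The pairing comes from the data and not from the labels. Across genotypes equal numbers gave -0.0629 to 0.257, and they do not pair libraries. No 2 libraries of a group agreed within sampling noise (lowest chi-square per degree of freedom 4.07).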

Additional observations from a re-analysis of the deposited data

How the results depend on the processing

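Depth limits Cd5l in intact tissue (5 counts over DKK1 and 90 over WT libraries), where its value of -3.92 was -1.17 with limma-voom, -1.13 with the limma-voom block, and -1.17 or -0.54 on TPM with a pseudocount of 0.1 or 1, none past the threshold. Of 299 recomputed values, 226 kept their direction, side of the threshold or size. Unless a setting below shows it, the cause of a move was not tested. Values are genes called, listed genes called and genes called within 1 Mb, in lesions 417, 9 and 5 and in intact tissue 155, 0 and 2. DESeq2 gave 1171, 28 and 8 in lesions, 267 genes and 3 listed genes in intact tissue, and Fcrls there at -1.90. limma-voom gave 694 genes and 21 listed genes in lesions, 1 near gene in intact tissue and Cd5l at 5.25 between hemispheres of DKK1 mice. Upper-quartile scaling gave 1 near gene in intact tissue. With no filter there were 3 near genes in lesions and 1 listed gene in intact tissue. The 6 libraries alone gave 97, 2 and 1 in lesions and 1 listed and 1 near gene in intact tissue, where Cd5l did not pass the filter. Deposited TPM with a pseudocount of 0.1 gave 4 listed genes in lesions, 2 in intact tissue and Cd5l at 4.11 between hemispheres of DKK1 mice. With a pseudocount of 1 there was 1 listed gene in intact tissue, and that Cd5l value was 1.74. From 80 to 90 Mb of chromosome 3, 11 genes in lesions and 6 in intact tissue were called.

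With the replicate number as an additive replicate block, 14 listed genes were called in lesions and 1 near gene in intact tissue, and Fcrls passed the threshold in intact tissue (-1.88, edgeR adjusted p = 0.00196), but numbers do not pair the genotypes. With a replicate block of genotype and number in limma-voom (consensus correlation 0.313), 681 genes and 23 listed genes were called in lesions and 1 near gene in intact tissue. Cd5l between hemispheres was then 5.25 in DKK1 and 8.39 in WT mice. A fixed replicate block of genotype and number, added after seeing the data, gave 9903 genes and 133 listed genes called between hemispheres of DKK1 mice (8819 and 129 without it) and 7982 and 129 of WT mice (6546 and 125 without it).

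Leaving out 1 library at a time gave 119 to 2551 genes, 0 to 66 listed and 1 to 9 near genes called in lesions, and 94 to 197, 0 to 2 and 0 to 0 in intact tissue. Cd5l ranged over -5.00 to -3.67 in lesions, -4.48 to 0.73 in intact tissue, 5.20 to 5.67 between hemispheres of DKK1 mice and 5.24 to 10.82 of WT mice. Fcrls ranged over -2.11 to -1.44 in lesions and -2.20 to -1.41 in intact tissue. Leaving out both WT libraries numbered 1, also chosen after seeing the data, gave 3244, 93 and 11 in lesions, 2 listed and 1 near gene in intact tissue, and Cd5l at -3.67 in lesions, 0.73 in intact tissue (reversed) and 9.89 between hemispheres of WT mice. Profiles of log2 TPM shared 3 of the 5 genes most like Cd5l and 4 of those most like Fcrls. Among named calls in lesions, the 6 libraries alone lost Abcg1, Apoe, Cd209f, Ctsb, Ctsd, Glmp, Hdgf, Id3, Iqgap3, Pax5 and Pear1. Both TPM settings lost Abcg1, Apoe, Ctsb, Glmp, Id3 and Pear1, and a pseudocount of 0.1 also Cd209f. Upper-quartile scaling lost Apoe, Cd209f and Glmp, and no filter or the additive block lost Cd209f, Glmp and Pear1. In intact tissue Hdgf was lost with limma-voom, its block, upper-quartile scaling, no filter, the 6 libraries alone and the additive block.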
